A study of Mus musculus with 2 samples.

Results

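Replication-dependent histone genes supply the bulk of the histone protein that packs new DNA in S phase, and they are described here across a control and a JMJD3 knockdown library of mouse liver cells. They were taken as every gene whose symbol in the count files begins with Hist1h, Hist2h, Hist3h or Hist4h, which gave 68 of 23284 genes. By type, 6 encode the linker histone H1, which binds the DNA between nucleosomes, and 18, 19, 12 and 13 encode the core histones H2A, H2B, H3 and H4. The symbol rule also takes in Hist3h2bb-ps, named as a pseudogene, and Hist1h1t, Hist1h2ba and Hist1h2aa, which are known from testis. In the files 54 of the genes lie on chromosome 13, 10 on chromosome 3, 3 on chromosome 11 and 1 on chromosome 6.

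Each library came from hepatocytes of 5 C57BL/6 mice that were pooled within the group, so the mice are not replicates, and each group has 1 library. The cells of the control group received control lentivirus and those of the other group a lentivirus with an shRNA against JMJD3, a demethylase of histone H3 encoded by Kdm6b. Infection began 24 h after plating and lasted 48 h, and both groups then had 5 mM glucose and 10 µM forskolin, which raises cyclic AMP, for 6 h as an imitation of fasting. The sources used here give neither the shRNA sequence nor the age of the mice, nor whether RNA with a poly(A) tail was selected.

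The control library held 11099562 counts and the knockdown library 18334366, a 1.65-fold difference in depth, which CPM (counts divided by the library total, with edgeR's TMM factors, and put on one common scale) take into account. Kdm6b had 1019 counts (90.7 CPM) in control and 598 (33.0 CPM) in knockdown, a log2 ratio of -1.46 (-1.60 to -1.31) in the direction the labels give. All 9 hepatocyte markers sought were measured, with 11916 CPM in sum in control and 8503 CPM in knockdown. By the rule given below, 5 were lower and 1 higher, where 12.8% of all measured genes were lower and 15.3% higher. The lowest was Cps1 at a log2 ratio of -5.85 and the higher one Apob at 0.78. Of 5 markers of dividing cells 3 were higher, with 81.3 CPM in sum in control and 165 CPM in knockdown. Of 5 bile duct markers 3 were higher, and their sums were 7974 and 8282 CPM, nearly all of it Spp1, which other cells make too. Macrophage markers summed to 25.5 and 26.3 CPM, with Clec4f at 0, fibroblast markers to 221 and 222 CPM, endothelial markers to 46.3 and 42.0 CPM and blood markers to 1.33 and 0.608 CPM, with Hba-a1, Hbb-b1 and Cd3e at 0. Of the measured markers, 1 of 6 of fibroblasts (Pdgfrb, log2 -0.82) and 1 of 5 of endothelium (Stab2, -1.03) were lower and 0 higher. Of 5 measured macrophage markers 0 were lower or higher. The part of these shifts in the results below was not tested. In bulk RNA fewer cells of a type and less RNA per cell cannot be told apart.

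Messages of these genes are unusual in that they mostly carry no introns and no poly(A) tail. They end just after a short stem-loop that the stem-loop binding protein SLBP holds, and a complex guided by the U7 small nuclear RNA cuts them there. Many of these genes can also make a longer message that runs past the stem-loop to a poly(A) signal, a form known from cells that have left the cycle. A library built on poly(A) tails would hold few of the short messages, and near-identical copies make it hard to place reads, so a low count here need not mean little transcript.

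The stem-loop was sought in the GENCODE transcripts of all 68 genes, since it marks where the short message ends. The search took the histone stem-loop, 16 letters on the transcript strand, as a stem of 6 bases paired without mismatch around a loop of 4, the stem starting with a pair of Gs and having CT at its inner end. It was found in 46 of the 68 genes and in 0.308% of all 141767 transcripts. Several transcript models of this family cover only the coding part, so a gene without a match may have one beyond its model. A stem-loop with a mismatch or with other letters would also be missed. The 6 matches among the measured genes follow as DNA with GRCm38 coordinates, the stem-loop in capitals, to show how little they differ.
Hist1h1c (chr13:23739505-23739534, plus strand): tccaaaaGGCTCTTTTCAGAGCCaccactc
Hist1h1d (chr13:23555780-23555809, plus strand): ctcaaacGGCTCTTTTCAGAGCCacccaca
Hist3h2a (chr11:58955165-58955194, plus strand): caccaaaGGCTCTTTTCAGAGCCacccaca
Hist2h3c1 (chr3:96247320-96247349, plus strand): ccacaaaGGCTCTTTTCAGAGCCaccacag
Hist1h4i (chr13:22040959-22040988, minus strand): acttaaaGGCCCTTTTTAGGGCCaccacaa
Hist1h4h (chr13:23531451-23531480, plus strand): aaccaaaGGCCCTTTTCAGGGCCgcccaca
The spelling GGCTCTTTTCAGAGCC stood in 26 genes, 3 of H1, 10 of H2A, 8 of H2B and 5 of H3, and in 0 of H4. The H4 genes had other stems, with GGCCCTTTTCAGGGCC in 7 of them. No match was found in the GENCODE transcripts of Hist1h2bc (1156 bases) and Hist2h2be (2620 bases), the remaining measured genes.

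Few of these genes had reads. Of the 68, 27 had 0 counts in both libraries, where the floor of 3 counts allows up to 0.267 CPM in control and 0.166 CPM in knockdown. Only 8 reached a mean of at least 1 CPM over both libraries and are called measured here. The other 33 had 1 to 14 counts in the library where they were higher. By type, 2 of 6 H1, 1 of 18 H2A, 2 of 19 H2B, 1 of 12 H3 and 2 of 13 H4 genes were measured. In control 3 genes had at least 100 counts: Hist1h1c with 6432, Hist1h2bc with 1689 and Hist3h2a with 374.

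Counts differed with the length of the gene model. Of 15 genes with at least 1000 bp of exon in the files, 12 had a count and 5 were measured, while of 53 shorter genes 29 had a count and 3 were measured. Of 23 genes whose GENCODE transcript runs at least 100 bases past the stem-loop, 21 had a count, against 11 of 23 with a shorter run. The longer-running genes held 6999 counts in control and 1424 in knockdown, of which Hist1h1c gave 6432 and 959. Those with under 100 bases past the stem-loop held 31 and 37 in all. The 22 genes in which no stem-loop was found belong to neither group. Of these 9 had a count, and they held 1775 and 854 counts, of which Hist1h2bc gave 1689 and 777. Past the stem-loop Hist1h1c runs for 840 bases, Hist3h2a for 1643 and Hist2h3c1 for 1167, while Hist1h4h runs for 46. These splits were chosen after the counts were seen, and whether the reads lie past the stem-loop cannot be read from counts per gene.

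**Figure D1:**
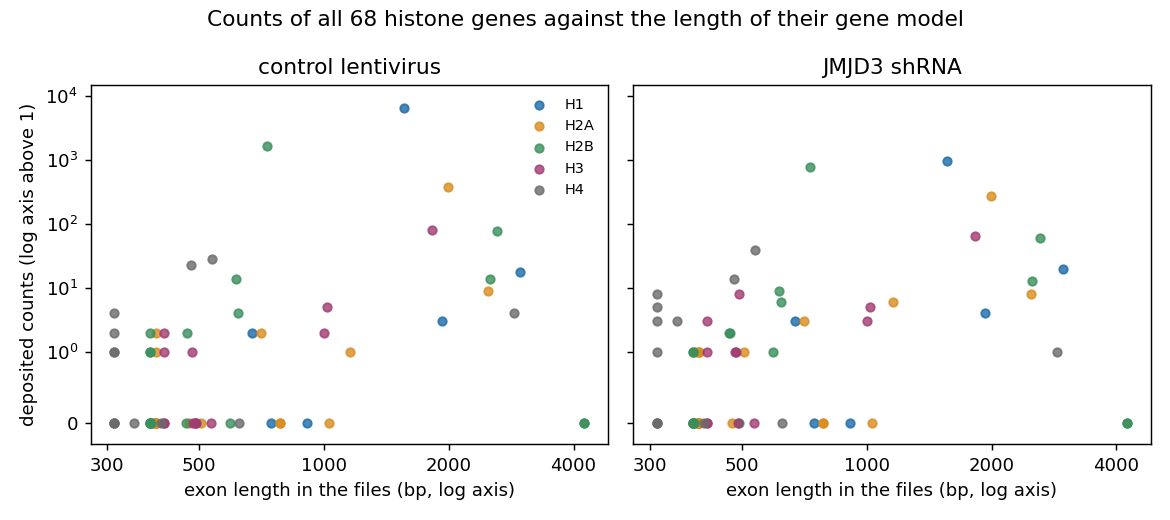
Deposited counts per gene (vertical, log axis above 1) against exon length in bp in the files (horizontal, log axis) for the 68 genes in each library, coloured by histone type. Most genes under 1000 bp sit at or near 0 in both libraries, Hist1h2bc at 728 bp being the high exception, and the 2 models of 4242 bp at 0 share their exons with each other.

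Many of these genes are near-identical copies. For each gene the share of its 100-base stretches, the length of a read, that occur in no GENCODE gene elsewhere was computed as a guide to how well a read can be placed. Under 50% of the stretches were the gene's own in 24 of 68 genes: 11 of H2A, 5 of H2B, 5 of H3, 3 of H4 and 0 of H1. Of these 24 genes 0 were measured and 13 had 0 counts in both libraries, against 14 at 0 among the 44 other genes. The part of copies in the low counts was not tested. All 8 measured genes were above that mark. The lowest were Hist1h4h at 61.5% and Hist2h3c1 at 67.1%, so these counts are less certain, while Hist1h1c was at 94.9%, Hist1h2bc at 74.6% and Hist3h2a and Hist2h2be at 100%. In 10 genes the exons overlap those of another gene in the files, which leaves reads there uncounted by default, and 7 of these were at 0.

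All 8 measured genes had a ratio of knockdown over control below 1. A gene was called lower or higher when its ratio was at least 1.5-fold from 1 and the exact binomial 95% interval of its counts excluded 1. By this rule 6 of 8 were lower and 0 higher, where 12.8% of all 12607 measured genes were lower and 15.3% higher. Hist1h4h, 1 of the 6, reached the filter only through control, where it was higher, so its place among them adds no support. The median log2 ratio of the 8 was -1.11 with a standard deviation of 0.98 between genes, and that of all measured genes was -0.00. Of 10 genes of the family in the authors' deposited table, 6 were lower there at the adjusted threshold of 0.05, as were 11.8% of its 12838 genes. These are the same 6 genes, and the other 4 in the authors' deposited table are Hist1h4i, Hist1h1d, Hist1h2bg and Hist1h2be. With 1 library a group there is no replicate spread, so no p-value of the rule is given and intervals cover counting error only. These intervals are too narrow if both reads of a pair were counted, as is likely. The authors' adjusted p-values rest on the same 2 libraries and cannot measure replicate spread either. The 6 shared genes are therefore not a second check.

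**Figure D2:**
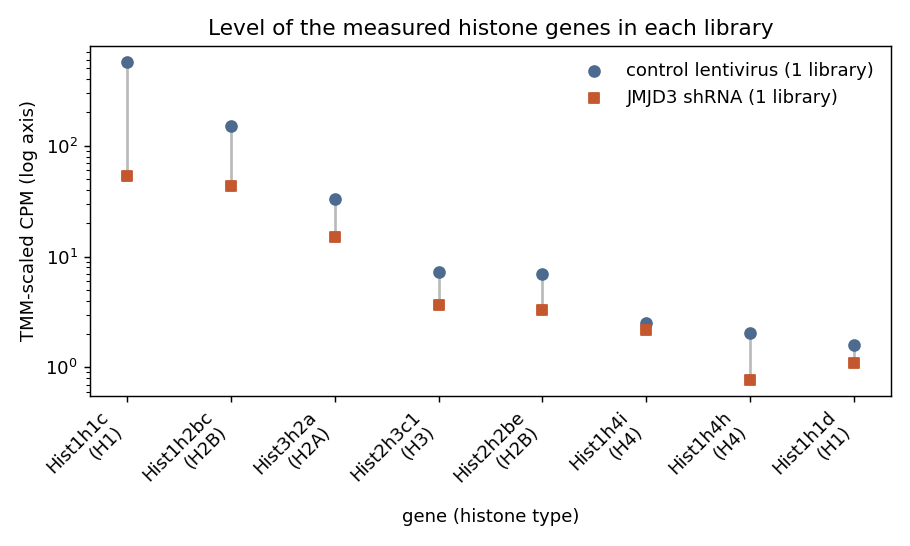
Level of each measured gene as TMM-scaled CPM (log axis), with 1 point for each library and no error bar because each group has 1 library. The knockdown square lies below the control circle in all 8 genes, with the widest gap at Hist1h1c (572 against 53.0 CPM).

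Among the linker histones, Hist1h1c, which encodes the somatic subtype H1.2, was the gene most changed. It had 6432 counts (572 CPM) in control and 959 (53.0 CPM) in knockdown. The knockdown level was 10.8-fold lower, with an interval of 10.1 to 11.6, a log2 ratio of -3.43 (-3.53 to -3.34). Among all 12607 measured genes its ratio ranked as number 81 from the lowest, and among the 4921 with a mean of at least 50 CPM as number 13. Per kb of exon its level fell from rank 127 of 23284 genes in control to rank 2537 in knockdown. The gene is a single exon on the plus strand of chromosome 13, from 23830676 to 23832236 in mm9. In the authors' deposited table its log2 fold change was -3.43 with an adjusted p-value of 3.75e-48, by a test that no source used here states.

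The other H1 genes were close to absent from the counts. Hist1h1d, for the subtype H1.3, had 18 counts in control (1.60 CPM) and 20 in knockdown (1.10 CPM), a log2 ratio of -0.54 with an interval of -1.53 to 0.47 that includes 0. Hist1h1b had 2 and 3 counts and Hist1h1e 3 and 4, while Hist1h1a and the testis form Hist1h1t were at 0 in both libraries. Hist1h1c thus made up 99.6% of the H1 counts of the family in control and 97.3% in knockdown. Without it the H1 counts were 23 and 27, a log2 ratio of -0.46 (-1.31 to 0.41).

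Beside the clustered genes, cells use H1f0, the H1 form typical of resting and differentiated cells, and H1fx, both with poly(A) tails. On the scale of CPM per kb of exon, Hist1h1c stood at 367 in control and 33.9 in knockdown, H1f0 at 106 and 70.1, and H1fx at 10.6 and 4.32. The sum over Hist1h1a to Hist1h1e, H1f0 and H1fx was 484 in control and 109 in knockdown. Hist1h1c held 75.7% of that sum in control and 31.1% in knockdown, and H1f0 21.9% and 64.3%. The most abundant H1 transcript in these counts was therefore Hist1h1c in control and H1f0 in knockdown.

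**Figure D3:**
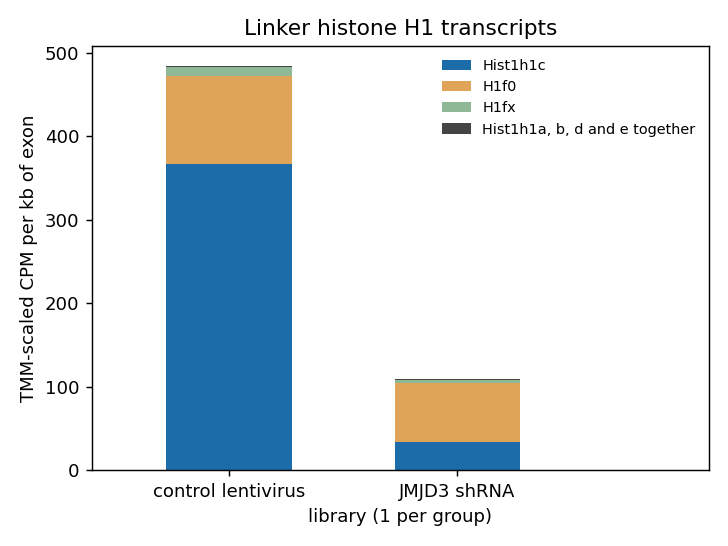
Level of H1 transcripts in each library, stacked, as TMM-scaled CPM per kb of exon, with no error bar because each group has 1 library. The Hist1h1c segment goes from 367 in control to 33.9 in knockdown, and the H1f0 segment from 106 to 70.1.

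Of the H2A genes only Hist3h2a was measured. It lies on chromosome 11 from 58768187 to 58770176 on the plus strand and had 374 counts (33.3 CPM) in control and 274 (15.1 CPM) in knockdown. Its level was 2.20-fold lower (1.88 to 2.58), a log2 ratio of -1.14. It gave 96.1% of the H2A counts in control and 92.9% in knockdown. The 17 other H2A genes had 15 and 21 counts in all, a log2 ratio of -0.20 (-1.23 to 0.86), with Hist1h2ac highest at 9 and 8. Hist2h2aa1 had 1 and 6 counts, but only 4.11% of its stretches are its own, and 0% of those of its near twin Hist2h2aa2.

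Among H2B genes both measured members were lower. Hist1h2bc, whose model of 2 exons spans chromosome 13 from 23776068 to 23784349, had 1689 counts (150.3 CPM) in control and 777 (42.9 CPM) in knockdown, 3.50-fold lower (3.21 to 3.82). Hist2h2be on chromosome 3 had 79 counts (7.03 CPM) and 60 (3.31 CPM), a log2 ratio of -1.08 (-1.59 to -0.58). Hist1h2bc gave most of the H2B counts, 93.5% in control and 89.1% in knockdown. Without it the type still held 117 and 95 counts, a log2 ratio of -0.99 (-1.39 to -0.59). Below the filter, Hist1h2bg had 14 and 9 counts, with a log2 ratio of -1.33 (-2.71 to -0.01), and Hist1h2be 14 and 13, with -0.79 (-2.00 to 0.40). Hist1h2be shares exonic sequence with Hist1h1e, so both counts are uncertain. In the authors' deposited table the adjusted p-value was 7.83e-15 for Hist1h2bc, 0.00595 for Hist2h2be and 0.195 for Hist1h2bg.

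Of the H3 genes only Hist2h3c1 was measured, with 81 counts (7.21 CPM) in control and 66 (3.65 CPM) in knockdown. Its log2 ratio was -0.98 (-1.47 to -0.50). The 11 other H3 genes went the other way in sum, with 11 and 22 counts, but their ratio of 1.24 (log2 0.31) had an interval of 0.577 to 2.84. Of these, Hist1h3g had 0 counts in control and 8 in knockdown, 1.66-fold higher if control is set at the floor of 3 counts. Its counting interval starts lower, at a ratio of 1.06 (log2 0.08), and the gene was below the filter and not called. Hist2h3c2, a close copy of Hist2h3c1, had 5 counts in each library and only 38.4% of its stretches to itself.

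In sum the H4 genes had 63 and 74 counts in the libraries. Their log2 ratio of -0.46 (-0.96 to 0.05) was -0.69 without Hist1h4i and 0.01 with the length trend removed. Hist1h4h had 23 counts (2.05 CPM) in control and 14 (0.773 CPM) in knockdown, a log2 ratio of -1.40 (-2.48 to -0.38). That call is lost when counts are divided by 2, as for reads counted in pairs, and when the trend of the ratio with exon length is removed (log2 -0.92). Hist1h4i had 28 counts (2.49 CPM) and 39 (2.15 CPM), a log2 ratio of -0.21 (-0.95 to 0.54), which becomes 0.24 with the length trend removed. The remaining 11 H4 genes had 12 and 21 counts in all, with Hist1h4k at 4 and 8, Hist1h4a at 1 and 5 and Hist4h4 at 4 and 1, and a log2 ratio of 0.12 (-0.97 to 1.28).

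Summed over all 68 genes, the family held 8805 counts (783 CPM) in control and 2315 (128 CPM) in knockdown, 6.13-fold lower (5.85 to 6.42). Hist1h1c held 73.0% of these counts in control (exact interval 72.1 to 74.0) and 41.4% in knockdown (39.4 to 43.5). Without Hist1h1c the sum was 2.82-fold lower (2.64 to 3.02), and without Hist1h1c and Hist1h2bc 1.90-fold lower (1.70 to 2.13). By type the log2 ratio of the sums was -3.40 for H1, -1.74 for H2B, -1.09 for H2A, -0.75 for H3 and -0.46 for H4. The H1 and H2B intervals were apart from each other and from the rest, while those of H2A, H3 and H4 overlapped. That of H4 alone included 0, at -0.96 to 0.05. The 60 genes below the filter held 81 and 106 counts, a log2 ratio of -0.30 (-0.73 to 0.14). In sum over these scarce genes a difference was not detectable at this depth. By type, only the interval of the 17 H2B genes among them excluded 0, with 38 and 35 counts and a log2 ratio of -0.81 (-1.51 to -0.11). That interval is too narrow if both reads of a pair were counted, so this exception is uncertain. Most of these H2B counts came from Hist1h2bg (14 and 9) and Hist1h2be (14 and 13), the latter uncertain for its overlap. Per kb of exon, the level of Hist1h1c was highest in control (367, with 206 for Hist1h2bc), and that of Hist1h2bc was highest in knockdown (58.9, with 33.9 for Hist1h1c).

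**Figure D4:**
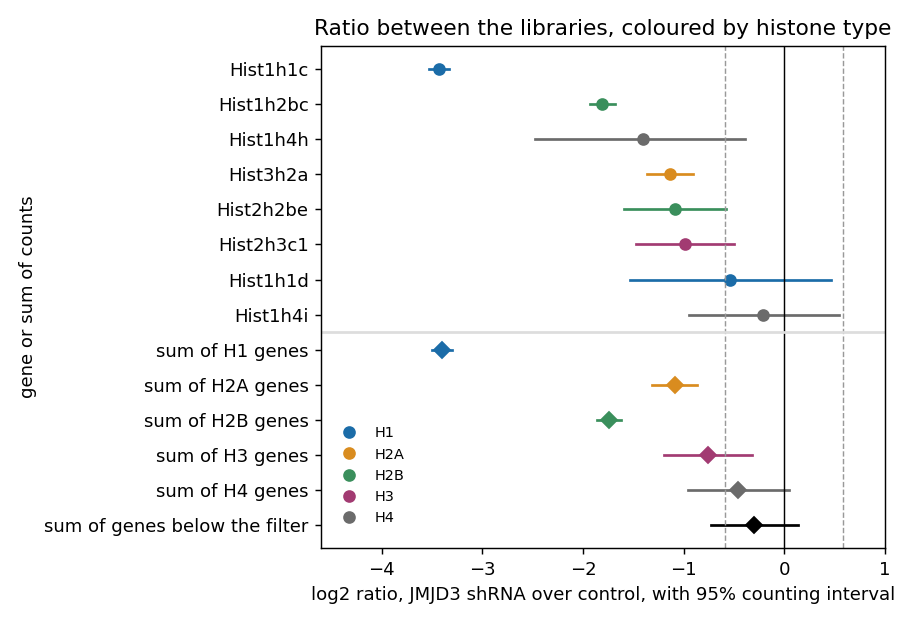
Log2 ratio of knockdown over control with its exact binomial 95% counting interval for the 8 measured genes (circles), the sum of each histone type and the sum of the 60 genes below the filter (diamonds), with dashed lines at 1.5-fold. Hist1h1c at -3.43 and Hist1h2bc at -1.81 are lowest, and the intervals of Hist1h1d, Hist1h4i, the H4 sum and the genes below the filter include 0.

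The promoters were read to see what the measured genes share and where they differ. RefSeq windows of GRCm38.p6, from 250 bases before to 50 after the start, were found for 61 of the 68 genes and 6 of the 8 measured ones. Both strands were searched for the TATA box as TATANA. The CCAAT box was searched by its own letters, the octamer, which Pou2f1 binds, as ATGCAAAT, the H1 box known from H1 genes as AAACACA, and the cyclic AMP response element as TGACGTCA. Matches of TATANA can overlap each other. A match is a description of the letters, not a site in use. The windows of Hist1h1c and Hist1h1d are shown as H1 genes with the same layout and unlike counts, and those of Hist3h2a and Hist1h4h for the other elements, with all matches in capitals.
Hist1h1c (chr13:23738557-23738856, plus strand): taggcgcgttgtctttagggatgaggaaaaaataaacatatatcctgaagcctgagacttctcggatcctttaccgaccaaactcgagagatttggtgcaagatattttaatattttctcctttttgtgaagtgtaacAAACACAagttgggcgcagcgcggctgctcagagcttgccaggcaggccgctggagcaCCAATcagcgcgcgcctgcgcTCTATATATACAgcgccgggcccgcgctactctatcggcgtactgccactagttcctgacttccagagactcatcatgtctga
Hist1h1d (chr13:23554782-23555081, plus strand): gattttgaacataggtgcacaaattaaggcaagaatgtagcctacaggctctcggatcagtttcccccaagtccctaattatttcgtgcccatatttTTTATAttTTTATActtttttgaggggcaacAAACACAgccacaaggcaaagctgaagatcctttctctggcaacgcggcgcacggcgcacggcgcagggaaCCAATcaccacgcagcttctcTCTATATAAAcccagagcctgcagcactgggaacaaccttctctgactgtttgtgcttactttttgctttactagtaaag
Hist3h2a (chr11:58954435-58954734, plus strand): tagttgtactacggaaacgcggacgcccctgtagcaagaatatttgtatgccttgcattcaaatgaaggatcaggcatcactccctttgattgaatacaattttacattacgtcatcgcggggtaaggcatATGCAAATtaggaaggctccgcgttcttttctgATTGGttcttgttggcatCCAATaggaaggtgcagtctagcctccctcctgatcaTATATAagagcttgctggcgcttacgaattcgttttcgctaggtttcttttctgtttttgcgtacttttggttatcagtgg
Hist1h4h (chr13:23530794-23531093, plus strand): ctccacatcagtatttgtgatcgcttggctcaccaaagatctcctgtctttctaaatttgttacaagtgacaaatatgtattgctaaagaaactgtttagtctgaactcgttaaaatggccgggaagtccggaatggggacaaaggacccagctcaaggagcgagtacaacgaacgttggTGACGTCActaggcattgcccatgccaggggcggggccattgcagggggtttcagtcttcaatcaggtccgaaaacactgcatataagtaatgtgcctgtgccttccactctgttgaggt
Hist1h1c and Hist1h1d each held an H1 box, which begins 112 and 122 bases before the start, a CCAAT box 54 and 51 bases before it, and TATA matches. Their log2 ratios were -3.43 and -0.54, the latter on 18 and 20 counts. Hist3h2a held an octamer 119 bases before the start, and Hist1h4h the cyclic AMP element 70 bases before it.

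Across the family the elements went by type. The H1 box stood in 5 of 6 H1, 2 of 17 H2A and 2 of 16 H2B windows and in 0 of the other types, against 7.18% of all 32851 windows. The octamer stood in 7 of 17 H2A and 7 of 16 H2B windows and in 0 of the other types, against 1.74% of all windows. The CCAAT box stood in every window of H1, H2A, H2B and H3 and in 3 of 12 of H4, against 37.4%, and TATANA in 49 of 61, against 24.7%. TGACGTCA stood in 4 of 61, against 1.79%. Many H2A and H2B genes stand head to head and share a promoter, so these windows are not independent of each other.

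Genes near Hist1h1c were lower too. Within 250 kb of it, 8 genes lie that are not of the family, and 5 of them were measured. All 5 were lower, where 12.8% of all measured genes were: the iron regulator Hfe with 1301 and 763 counts (log2 -1.46) and the phosphate and anion transporters Slc17a2 (-2.54), Slc17a4 (-1.95), Slc17a3 (-1.52) and Slc17a1 (-1.26). The measured genes Hist1h2bc, Hist1h1d and Hist1h4h lie in the same stretch of chromosome 13. Of these, Hist1h1d was not called (log2 -0.54, -1.53 to 0.47), and Hist1h4h reached the filter only through control. The same count was made around 3 more measured genes. Within 250 kb of Hist3h2a 1 of 9 measured genes was lower and 1 higher, of Hist2h2be 1 of 7 lower, and of Hist1h4i 0 of 1. The first 2 of these counts are near the share over all genes. These differences between stretches were not tested, and the window was chosen after the counts were seen.

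Histone variant genes outside the family, mostly ordinary genes with poly(A) tails, also had ratios below 1. All 11 measured variants of 15 in the files had ratios below 1, with a median log2 ratio of -0.31, and 3 were lower by the rule, where 50.2% of all measured genes had ratios below 1 and 12.8% were lower. These were H1f0 at -0.59, H1fx at -1.29 and H2afv, an H2A.Z form, at -0.62. H1f0 passed 1.5-fold by little, and with DESeq2 size factors 2 variants were lower. The most abundant, H3f3b for the H3.3 protein, had 779 CPM in control and 659 CPM in knockdown, a log2 ratio of -0.24, and H3f3a was at -0.52. H2afz was at -0.31, H2afx, which marks DNA breaks, at -0.31, and the macroH2A genes H2afy and H2afy2 at -0.17 and -0.18. H2afj, at -0.07, and the centromere form Cenpa, at -0.22, had intervals that included a ratio of 1, as did H2afy2. With the length trend removed the median was -0.12 and 1 variant was lower.

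Of 29 genes for the processing and transcription of histone messages 4 were higher and 0 lower, with a median log2 ratio of 0.24, so the count of higher genes was near the 15.3% of all measured genes. With the length trend removed 1 was higher. The higher ones were Casp8ap2 (0.61), a factor of histone locus bodies, the S phase cyclin Ccne1 (0.81), the octamer binding factor Pou2f1 (0.74) and Rbl1 (0.69). Slbp had 22.8 CPM in control and 29.7 CPM in knockdown (log2 0.38), and Npat, the coactivator of these genes, 58.6 and 84.2 CPM (0.52). The most abundant were Ybx1 at 0.03 and Sympk at -0.08, and Srrt was lowest at -0.41. Of 26 histone chaperones 2 were higher, Cabin1 at 0.77 and Spty2d1 at 0.62, and 0 lower, both counts below the 15.3% and 12.8% of all measured genes. Their median was 0.13, with Npm1 at 0.41, Ssrp1 at 0.06 and Asf1a lowest at -0.51. With the length trend removed 0 chaperones were higher.

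Of 36 DNA replication genes 14 were higher and 1 lower, where 15.3% and 12.8% of all measured genes were. The median log2 ratio was 0.42, and 11 were higher with the length trend removed. Uhrf1, which takes part in the copying of DNA methylation at forks, was highest at 1.67, with 5.34 CPM in control and 17.0 CPM in knockdown. The ribonucleotide reductase subunit Rrm2 was at 1.30 and the cyclin Ccna2 at 1.19. The most abundant, Mcm7 of the replicative helicase and the reductase subunit Rrm1, were both at 0.47. Lig1, the ligase of replication, was the gene called lower, at -0.68. Pcna, the sliding clamp, was at -0.29.

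**Figure D5:**
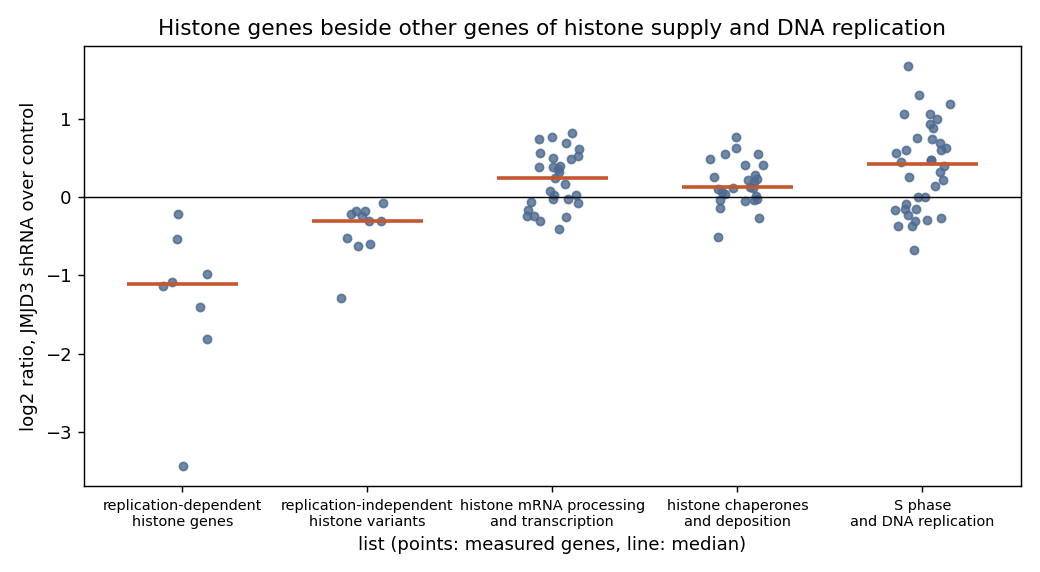
Log2 ratio of knockdown over control for the measured genes of the family and of the 4 other lists (points), with the median of each (line). The family's points lie from -3.43 to -0.21 around a median of -1.11, the variants' median is -0.31, and those of the other 3 lists are 0.24, 0.13 and 0.42.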

How the data were processed

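RNA of 1 control and 1 knockdown library was sequenced as 100 bp paired reads, per the labels. The submitters' processing notes name STAR 2.5.3a, Trimmomatic 0.36, edgeR and mm9. The deposited values are raw read counts per gene from featureCounts 1.4.6-p4 on UCSC mm9 exons without strand, per the file headers. No option for read pairs or for reads with several places was recorded, so both reads of a pair are likely to count and reads from near-identical copies to be left out. The authors' deposited table gives a log2 fold change, a log2 CPM, a p-value and an adjusted p-value per gene, with no test stated.

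Counts were scaled with TMM (edgeR 4.0.16, R 4.3.3). Genes with a mean of at least 1 CPM were measured, and a ratio at least 1.5-fold from 1 with an exact binomial 95% interval excluding 1 was called. The procedure was tested on simulated counts that held counting error only. That test could not show how it deals with spread between libraries or with both reads of a pair being counted. Sequences came from GENCODE vM21 (GRCm38) and RefSeq (GRCm38.p6), whose coordinates were not mixed with mm9. RefSeq names were matched through synonyms, 67 of 68 to exactly 1 gene. Named genes are all measured members and variants, and in other lists the 2 most abundant, the highest and the lowest; others were named after their values were seen. The members and lists were chosen with earlier results of these data known.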

Additional observations from a re-analysis of the deposited data

How the results depend on the processing

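With 1 library per group none of these differences has a replicate check, and no paired analysis was possible because each group has 1 library. The number of lower members was 6 with library totals or DESeq2 size factors in place of TMM. It was also 6 without members whose exons overlap another gene, but 0 of those were measured, so this setting could not change the number. The number was 5 with a mean of at least 5 CPM, with a 2-fold rule and with counts divided by 2. It was also 5 with the trend of the ratio with exon length removed. The 5 CPM filter kept Hist2h2be (3.31 CPM in knockdown) and Hist2h3c1 (3.65 CPM) only through control, so their place there adds no support. With at least 1 count in both libraries it was 7, out of more members than the 8 measured ones. The median log2 ratio was then -0.69 in place of -1.11. The share over all genes is not given here for these settings. The number of higher members was 0 in all of them. Leaving out members with under 50% of their stretches to themselves, an alternative chosen after seeing the data, gave 6. Of those members 0 were measured, so this setting could not change the number either. DESeq2 size factors moved all log2 ratios by 0.01, which left 2 variants lower in place of 3. Library totals moved them by -0.04, which left 3 processing genes higher in place of 4 and 12 replication genes in place of 14. With the most abundant gene left out, the log2 ratio of the sums was -1.50 for all genes, -0.46 for H1, -0.20 for H2A, -0.99 for H2B, -0.69 for H4 and, reversed in sign, 0.31 for H3. With the length trend removed it was -2.41 for all genes, -3.25 for H1, -1.39 for H2B and 0.01 for H4. The same step left 1 gene of message processing higher, 1 variant lower and 0 chaperones higher. Hist1h4h lost its call with the length trend removed and with counts divided by 2. The cause of the changes with exon length was not tested.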
